A study of Mus musculus with 12 samples.

Results

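The genes described here are 9 tight junction genes of mouse small bowel: the claudins Cldn2, Cldn3, Cldn4, Cldn7, Cldn15 and Cldn23, occludin (Ocln), zonula occludens-1 (Tjp1) and junctional adhesion molecule A (F11r). They were chosen by symbol, matched on the symbol column of the 12 deposited tables, and are 9 of the 35791 genes counted. This choice was made with earlier results of these data known, which limits comparisons of their counts and medians with all genes. All 9 passed the filter on low counts, which kept 13154 genes. The samples were small bowel from male C57BL/6 mice, a common inbred strain, with no transgene or mutation given in the labels, and resection was done at 8 to 10 weeks of age. Ileocecal resection removes the end of the ileum with the cecum, and the remaining bowel then adapts. The supplement was 2'-fucosyllactose (2'-FL), an oligosaccharide of human milk, at 2.5 g/L.

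The libraries formed 4 groups of 3. Pre control libraries were labelled as bowel before resection without the supplement, and Pre 2'-FL libraries as bowel before resection with it. Post control and Post 2'-FL libraries were labelled as bowel 8 weeks after resection, without and with the supplement. After surgery the mice received a liquid diet and later chow. The protocol text places all bowel collection at 8 weeks after resection and the start of 2'-FL on the day of resection, which does not match 6 libraries labelled as taken before it. The groups here follow each library's own label. The labels do not give the length of bowel sampled, the level along the gut or the age at collection, so resection cannot be told apart from these where they differed between Pre and Post. They also do not say that the libraries of a group came from separate animals, and the p-values measure the spread between these libraries.

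Tight junctions close the space between neighbouring epithelial cells near their apical edge. Claudins form the strands of the junction, and their mixture sets which ions pass: claudin-2 and claudin-15 are known to form cation pores, whereas claudin-3 and claudin-4 are counted among the sealing claudins. Occludin and F11r are further membrane proteins of the junction, and Tjp1 is the scaffold that ties them to actin. In small bowel, claudin-2 is known from crypts, and claudin-15 provides the paracellular sodium that glucose and bile acid uptake draw on.

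Promoter sequence, the 250 bases before the annotated start, was in the RefSeq table (build GRCm38.p6) for 8 of the 9 genes, and Cldn23 had no entry. The promoter of Cldn2, called lower after resection in the 2'-FL arm as tested, and those of Cldn3, Cldn4 and Ocln, called higher there with and without a correction, are shown to set them side by side, printed 5′ to 3′ on the gene's strand. Capitals mark matches, on either strand, to any of 6 motifs. These were the grainyhead-like motif ACCGGT, the motif TTTATG bound by CDX factors, the motif CAAAGT bound by HNF4 factors and the E-box CAGGTG. The last were the box motif TATAAA found near some start sites and the motif GGGCGG bound by SP and KLF factors.
Cldn2, chrX:139800558-139800807, + strand: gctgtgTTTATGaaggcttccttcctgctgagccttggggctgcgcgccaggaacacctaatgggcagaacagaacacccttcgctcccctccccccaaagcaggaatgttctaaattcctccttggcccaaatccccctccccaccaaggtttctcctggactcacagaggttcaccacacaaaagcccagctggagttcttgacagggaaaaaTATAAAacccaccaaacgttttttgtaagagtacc
Cldn3, chr5:134985964-134986213, + strand: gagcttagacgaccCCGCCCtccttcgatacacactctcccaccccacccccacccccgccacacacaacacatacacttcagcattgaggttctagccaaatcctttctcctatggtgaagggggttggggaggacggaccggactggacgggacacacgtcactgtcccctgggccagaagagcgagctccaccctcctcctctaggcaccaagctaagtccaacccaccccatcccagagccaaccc
Cldn4, chr5:134946935-134947184, − strand: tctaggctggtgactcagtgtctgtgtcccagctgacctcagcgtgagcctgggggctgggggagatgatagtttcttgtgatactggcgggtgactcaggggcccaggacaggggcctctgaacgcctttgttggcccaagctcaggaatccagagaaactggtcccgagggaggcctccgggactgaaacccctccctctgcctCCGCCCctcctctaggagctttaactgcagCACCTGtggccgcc
Ocln, chr13:100552719-100552968, − strand: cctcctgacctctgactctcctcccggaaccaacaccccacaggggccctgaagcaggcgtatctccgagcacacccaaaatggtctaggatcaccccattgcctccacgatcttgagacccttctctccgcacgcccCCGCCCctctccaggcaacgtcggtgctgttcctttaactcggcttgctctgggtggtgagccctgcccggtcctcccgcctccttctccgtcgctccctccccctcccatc
The Cldn2 promoter held 1 match to the CDX motif and 1 to the box motif, which occur in 10.8% and 12.4% of 32851 mouse promoters of this length. Its GC content was 52.0%, beside a median of 52.4% over all promoters. The Cldn3, Cldn4 and Ocln promoters each held 1 match to the SP and KLF motif, found in 32.7% of promoters, and had GC contents of 60.8%, 62.0% and 64.0%. Cldn4 also held 1 E-box match, a motif in 17.2% of promoters. Ocln has a second RefSeq start, whose window (chr13:100552499-100552748, not printed) had a GC content of 69.2%, 2 E-box matches and 1 SP and KLF match. None of these 4 windows held the grainyhead-like motif, which occurs in 1.9% of promoters, or the HNF4 motif, which occurs in 12.6%. Among members not printed, Tjp1, also called lower in the 2'-FL arm as tested, had 2 SP and KLF matches and a GC content of 63.2%. Cldn15 and F11r had 1 such match each, at 60.8% and 60.0%. Of the 2 windows of Cldn7, called higher as tested, the first had 0 at 51.2% and the second 1 at 60.0%. Neither this motif nor GC content thus separated the genes called lower from those called higher. A match is only these letters in this window.

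Libraries held 5663275 to 9385266 counts, so that 1 count was worth 0.107 to 0.177 CPM, the counts scaled to a common library total. Counts of the 9 genes ran from 131 for Cldn23 to 12333 for Cldn7 in a single library. The tissue label was checked against markers, and epithelial markers were detected in every library. Of 4 ileal markers, the hormone gene Fgf15 was at 0 in the 6 Post libraries. Group means went from 554 to 94.9 CPM for Cubn, 58 to 0.669 for Fabp6 and 24.3 to 13.5 for Slc10a2 in the control arm. In the 2'-FL arm they went from 305 to 21.1, 5.96 to 1.17 and 3.56 to 5.02 CPM. Sums of 4 proximal small bowel markers averaged 1530 and 1080 CPM in Pre and Post control, and 1380 and 421 CPM with the supplement. Lct was the largest part, with means of 1420 and 972 CPM, and 1270 and 365 CPM with the supplement. Gata4 went from 93.1 to 104 CPM in the control arm. Of the 4, 1 was called lower in the control arm and 3 in the 2'-FL arm, and 0 after the length and GC correction described below. What part the level of bowel had in these values was not tested. Of 3 colon markers, Car1 was at 0 in all 12 libraries, Aqp8 reached 4.65 CPM and Slc26a3 ran from 61.1 to 129 CPM. Of 4 pancreatic markers, Cpa1 and Pnlip were at 0 in all 12, Prss2 reached 0.189 CPM, and Cela1 ran from 4.84 to 23.1 CPM and was called higher in both arms. Counts also carried a trend with transcript length. Across 12654 genes with a known length, Spearman's rho between length and a library's deviation from the gene's mean was 0.26 to 0.50 in the 6 Pre libraries, −0.21 to 0.35 in Post control and −0.60 to −0.44 in Post 2'-FL, a description of the libraries. Tests were therefore run as tested and after a correction that removes a smooth trend with transcript length and GC content from each library. This correction shifted the median change of all genes by 0.10 on the log2 scale in the control arm and 0.15 in the 2'-FL arm. The share of calls that were higher went from 41.1% to 60.9% in the control arm and from 45.7% to 59.1% in the 2'-FL arm.

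Levels were compared between genes per kilobase of transcript. Cldn7 was the most abundant at a median of 759 CPM per kb over the 12 libraries, followed by Cldn15 at 319 and Cldn3 at 243. These 3 held ranks 1, 2 and 3 in each of the 12 libraries. F11r followed at 88.3 CPM per kb and Cldn4 at 61.5, whose ranges of 75.7 to 126 and 13.5 to 157 overlapped. Ocln had a median of 31.6 CPM per kb, Cldn23 of 19.0, Cldn2 of 13.2 and Tjp1 of 10.3. The order of these last 4 was not fixed: Ocln held ranks 6 to 7, Cldn23 ranks 7 to 8, Tjp1 ranks 8 to 9 and Cldn2 ranks 5 to 9. Cldn4 varied most between libraries, with its highest level 11.6-fold above its lowest.

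**Figure D1:**
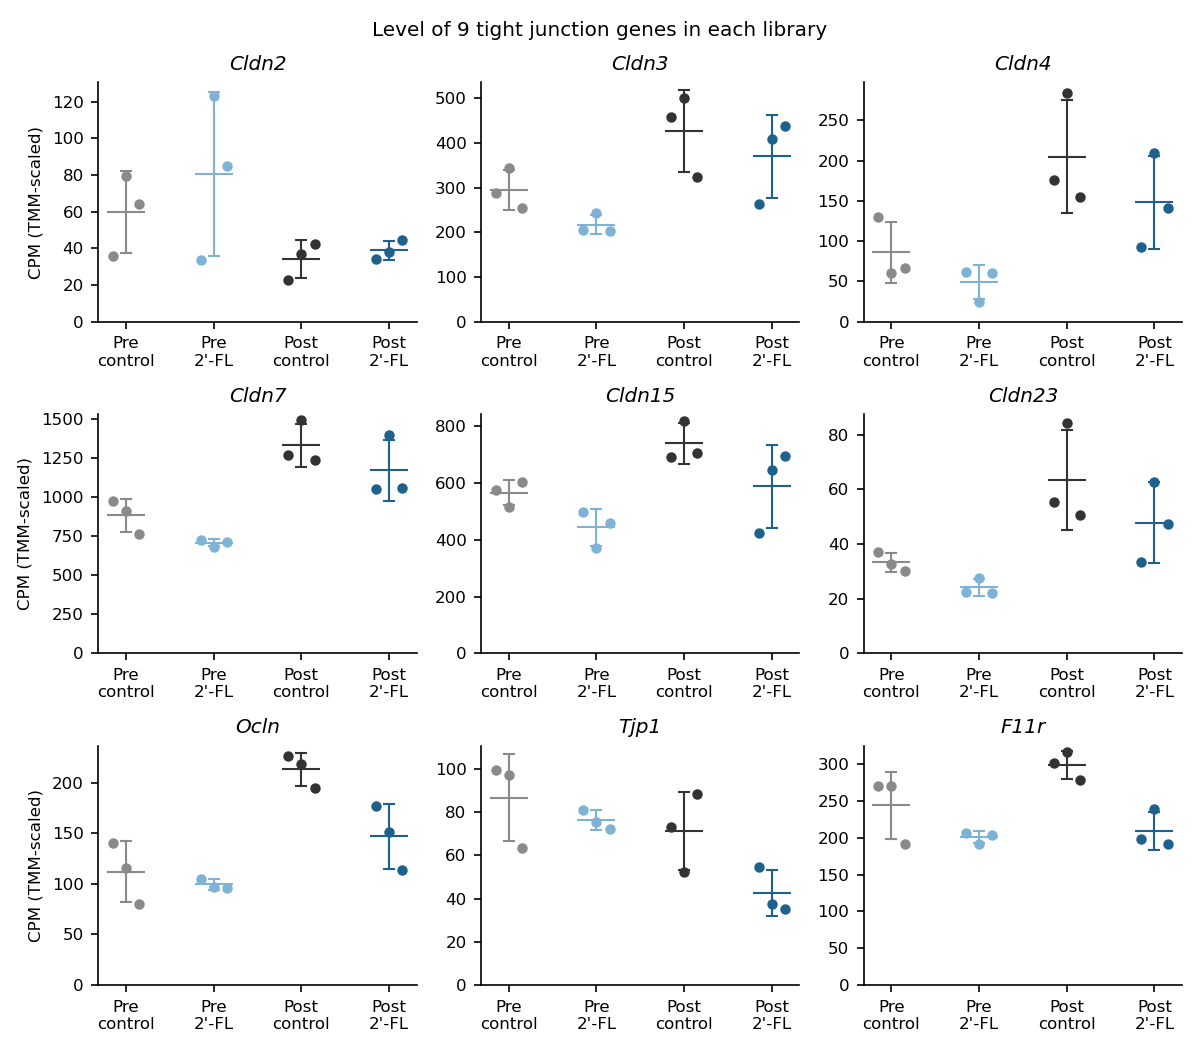
CPM (TMM-scaled) of each of the 9 genes, with a separate linear axis from 0 for each gene; points are the 12 libraries, horizontal bars the group means and error bars the SD of 3 libraries. Cldn4, Cldn23 and Ocln sit higher in both Post groups than in their Pre groups with no overlap, Cldn2 is spread widely in both Pre groups, and Tjp1 is lowest in Post 2'-FL.

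After resection without the supplement, 2 of the 9 genes were called higher and none lower, where a call is an adjusted p under 0.05. Cldn23 and Ocln were those called. The background was 4.42% of 13154 genes called higher and 6.33% called lower. After the correction the same 2 genes were called, beside 7.73% of genes higher and 4.97% lower. Of the 7 genes not called, 5 had values above their Pre level as tested and Cldn2 and Tjp1 had values below. Pre and Post values did not overlap for 6 of the 9 genes, beside 34.9% of all genes tested. The median change was 0.53 on the log2 scale for the 9 genes and −0.05 for all genes.

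With the supplement, 5 of the 9 genes were called higher after resection (Cldn3, Cldn4, Cldn7, Cldn23 and Ocln) and 2 lower (Cldn2 and Tjp1). The background in this arm was 25.3% of genes called higher and 30% called lower. After the correction 4 were called higher (Cldn3, Cldn4, Cldn23 and Ocln) and 0 lower, beside 21.3% and 14.7% of genes. Scaled to epithelium markers, 6 were called higher (the 5 and Cldn15) and 0 lower, and that scaling moved the median change of all genes by 0.40. An unadjusted p under 0.05 was likewise reached by only those 4 genes after the correction, whereas DESeq2 without the correction called 8 of the 9. Pre and Post did not overlap for 6 of 9 genes, beside 61.6% of all genes. The median change was 0.57 for the 9 genes and −0.13 for all genes as tested, and 0.35 and 0.02 after the correction.

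Markers of villus enterocytes (10 genes) had higher sums after resection, but not every marker rose. Fabp2 had the largest rise in mean CPM, from 8710 to 19200 in the control arm and from 5120 to 37000 in the 2'-FL arm. Lower means after resection were those of Sis and Slc5a1 in the control arm, and of Alpi, Slc5a1, Mttp and Anpep in the 2'-FL arm. The summed level of the 10 markers was 53200, 46000 and 35700 CPM in Pre control and 67800, 65300 and 54600 CPM in Post control. In the 2'-FL groups it was 47500, 24400 and 27900 CPM before and 73400, 69800 and 73600 CPM after resection. Pre and Post sums did not overlap in either arm as tested, and after the correction they overlapped in the 2'-FL arm (26000 to 51000 and 40300 to 52500 CPM). Of the 10 markers, 0 were called in the control arm, and 2 were called higher and 2 lower in the 2'-FL arm (1 and 0 after the correction). The part of these cells in the rises of the claudins and Ocln was not tested.

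**Figure D2:**
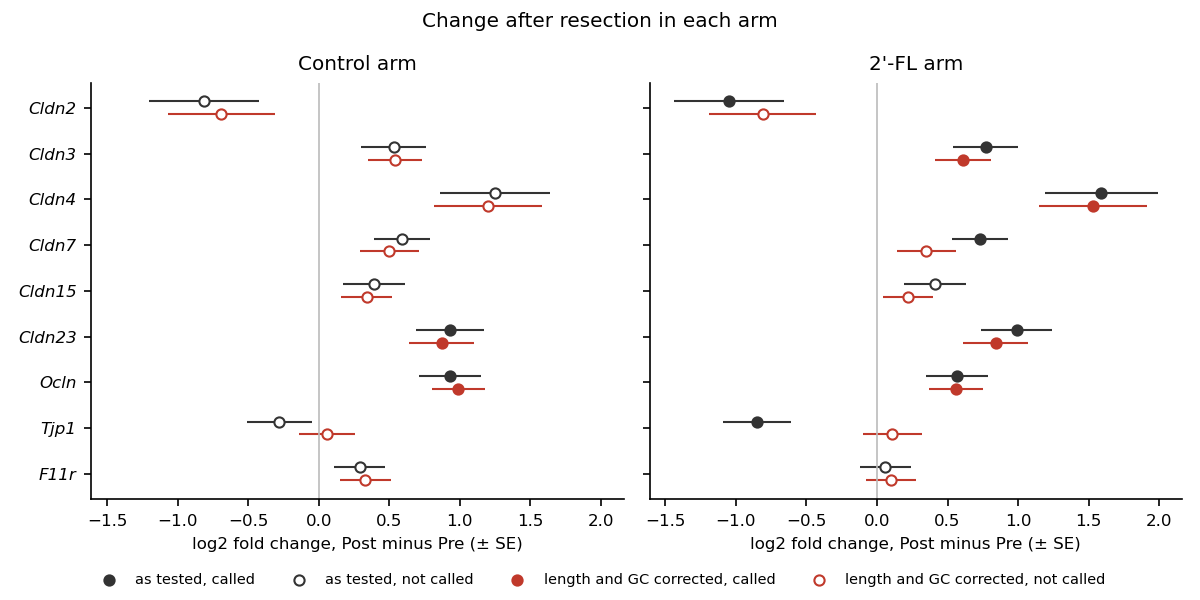
Log2 fold change after resection (Post minus Pre) of the 9 genes in the control arm and the 2'-FL arm, with the standard error; black is as tested, red after the length and GC correction, filled circles are called at an adjusted p under 0.05 and open circles are not. Cldn23 and Ocln are filled in both arms and both settings, Cldn4 lies farthest to the right in both arms, and the fall of Tjp1 in the 2'-FL arm is at 0.11 after the correction.

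Cldn2 encodes the pore claudin of crypts and lies at chrX:139800828-139811386 (mm10, + strand; Entrez 12738; 2 exons). Its level was 35.8, 79.6 and 64.1 CPM in Pre control and 22.5, 37.1 and 42.6 CPM in Post control. Pre 2'-FL libraries had 33.7, 123 and 85.0 CPM, and Post 2'-FL libraries 34.1, 38.0 and 44.5 CPM. The first library of each Pre group was as low as the Post libraries, so that Pre and Post overlapped in both arms. The 6 Post libraries ran from 22.5 to 44.5 CPM. The log2 change was −0.81 ± 0.39 (SE, adjusted p = 0.18) in the control arm and −1.05 ± 0.39 (adjusted p = 0.0344) in the 2'-FL arm, the latter a 2.07-fold decrease. After the correction the control arm value was −0.69 ± 0.38 (adjusted p = 0.219), and the 2'-FL arm value was −0.81 ± 0.38 (adjusted p = 0.108), no longer called. The call was also lost without Pre 2'-FL 2, at −0.53, and without any one of Pre 2'-FL 3, Post control 2, Post control 3 and the 3 Post 2'-FL libraries, at −1.15 to −0.96. Under the correction a call was gained without Pre 2'-FL 1, at −1.17 (adjusted p = 0.00961).

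Cell markers were also read beside Cldn2. The summed level of 6 crypt stem cell markers (Lgr5, Olfm4, Ascl2, Smoc2, Axin2 and Rnf43) was 286, 302 and 394 CPM in Pre control and 234, 203 and 259 CPM in Post control. The same sum was 235, 514 and 325 CPM in Pre 2'-FL and 358, 273 and 232 CPM in Post 2'-FL, where the groups overlapped. In both arms 3 of the 6 were called lower after resection as tested, and 2 and 0 after the correction. The library with the highest Cldn2, Pre 2'-FL 2, also had the highest crypt sum, and the Pre 2'-FL libraries ranked alike in both. Pre control 1 was the lowest of its group in both, and Post control 3 the highest of its group in both. Some other libraries did not pair in this way. Post 2'-FL 1 had a crypt sum of 358 CPM and Cldn2 at 34.1 CPM. In Pre control the highest crypt sum was in library 3 and the highest Cldn2 in library 2. Paneth cell markers (5 genes) summed to 18100 to 32500 CPM in Pre control and 5060 to 6520 CPM in Post control, and to 10300 to 34300 and 10000 to 26100 CPM in the 2'-FL groups. All 5 were called lower in the control arm in both settings, and in the 2'-FL arm 2 of 5 as tested and all 5 after the correction. The part of these cells in the Cldn2 values was not tested, and in bulk bowel fewer cells of a type and less RNA per cell cannot be told apart.

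Cldn15, the other pore claudin, lies at chr5:136966616-136975858 (+ strand; Entrez 60363; 5 exons). It measured 576, 517 and 604 CPM in Pre control and 694, 821 and 706 CPM in Post control, with no overlap. With the supplement it measured 499, 373 and 460 CPM before and 423, 647 and 697 CPM after resection. Here Post 2'-FL 1 lay among the Pre values. The log2 changes of 0.39 ± 0.22 (adjusted p = 0.247) and 0.41 ± 0.22 (adjusted p = 0.126) did not pass the test. After the correction they were 0.34 ± 0.18 (adjusted p = 0.207) and 0.22 ± 0.18 (adjusted p = 0.36). Leaving out Post 2'-FL 1 gave 0.60 (adjusted p = 0.0213) in the 2'-FL arm, DESeq2 gave 0.48 (adjusted p = 0.0437) and scaling to epithelium markers 0.76 (adjusted p = 0.0139).

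Cldn3, a sealing claudin, lies at chr5:134986214-134987472 (+ strand; Entrez 12739) as 1 exon, of which 40 bases fall within the antisense gene Wbscr25. Whether counting used strand is not given in the sources used here, and reads of the pair in that stretch may be shared. Cldn3 measured 287, 344 and 254 CPM in Pre control and 457, 500 and 324 CPM in Post control. Post control 3 fell below the highest Pre library, so the groups overlapped, and the change of 0.53 ± 0.23 was not called (adjusted p = 0.141; 0.54 ± 0.19 and adjusted p = 0.0816 after the correction). With the supplement the values were 206, 242 and 202 CPM before and 263, 408 and 437 CPM after resection, without overlap. The gene rose by 0.77 ± 0.23 on the log2 scale (adjusted p = 0.0118), and by 0.61 ± 0.20 after the correction (adjusted p = 0.0263). Without Post 2'-FL 3 the call was lost as tested at 0.63 (adjusted p = 0.0542). With the correction it was lost without Pre 2'-FL 1, Pre 2'-FL 3, Post 2'-FL 2 or Post 2'-FL 3, at 0.56 to 0.61.

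Cldn4, a neighbour of Cldn3 on the opposite strand at chr5:134945119-134946934 (− strand; Entrez 12740; 1 exon), is the other sealing claudin of the group and had the largest fold changes of the 9 genes in both arms. It measured 130, 60.9 and 67.0 CPM in Pre control and 176, 284 and 155 CPM in Post control. The 3 Post control libraries were above all 3 Pre control libraries, of which Pre control 1 stood well above the other pair. The change of 1.25 ± 0.39, a 2.38-fold difference, had an adjusted p of 0.0543 and was not called, and after the correction it was 1.20 ± 0.38 (adjusted p = 0.0516). DESeq2 called it at 1.27 (adjusted p = 0.016). Leaving out Pre control 1 gave 1.70 (adjusted p = 0.0211), and the gene also passed the test without Pre 2'-FL 2, Post control 3, Post 2'-FL 1 or Post 2'-FL 2, at 1.25 to 1.44. Under the correction Cldn4 passed without Pre control 1, Pre 2'-FL 2 or Post 2'-FL 2, at 1.20 to 1.70.

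In the 2'-FL arm Cldn4 measured 61.5, 24.5 and 60.8 CPM before and 93.2, 209 and 141 CPM after resection. All 3 Post libraries exceeded all 3 Pre libraries, and Pre 2'-FL 2 was the lowest of the 12. The gene rose 3.02-fold, a log2 change of 1.59 ± 0.40 (adjusted p = 0.00408), and by 1.53 ± 0.38 after the correction (adjusted p = 0.00744). This call held in all 12 refits that left out 1 library in turn, in both settings.

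Cldn7, the most abundant of the 9 per length, lies at chr11:69964779-69967885 (+ strand; Entrez 53624; 4 exons). It measured 973, 910 and 764 CPM in Pre control and 1270, 1490 and 1240 CPM in Post control. Its level was 727, 683 and 711 CPM in Pre 2'-FL and 1050, 1400 and 1060 CPM in Post 2'-FL. The groups did not overlap in either arm, and the SD of the Pre 2'-FL libraries was 22.1 CPM. The control arm change of 0.59 ± 0.20 was not called by edgeR (adjusted p = 0.0724) and was called by DESeq2 at 0.62 (adjusted p = 0.00777). After the correction it was 0.50 ± 0.21 (adjusted p = 0.118). It rose by 0.73 ± 0.20 (adjusted p = 0.00791) in the 2'-FL arm, a call kept in all 12 refits, but the corrected value was 0.35 ± 0.21 (adjusted p = 0.201). Its transcript is 1335 nt long, among the shortest of the 9.

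Cldn23, a less studied claudin, lies at chr8:35824712-35826559 (− strand; Entrez 71908; 1 exon). It measured 37.0, 32.6 and 30.2 CPM in Pre control and 55.5, 84.3 and 50.5 CPM in Post control. The lowest Post control library was above every Pre control library, and Post control 2 stood highest. The gene rose 1.90-fold in the control arm, by 0.93 ± 0.24 on the log2 scale (adjusted p = 0.0293), and by 0.87 ± 0.23 after the correction (adjusted p = 0.0253). As tested, omitting Pre control 2, Pre control 3, Post control 1 or Post control 2 removed this call, with values of 0.69 to 1.03. Under the correction, omitting Pre control 2, Pre control 3 or Post control 2 did so, with values of 0.66 to 0.88.

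With the supplement Cldn23 measured 22.5, 27.7 and 22.2 CPM before and 33.3, 62.8 and 47.3 CPM after resection. The groups were again apart, and Post 2'-FL 1 lay closest to the Pre values. The rise was 0.99 ± 0.25 (adjusted p = 0.004), or 1.99-fold, and 0.84 ± 0.23 after the correction (adjusted p = 0.0122). It was called in all 12 refits as tested and in 11 of 12 with the correction, where leaving out Post 2'-FL 2 gave 0.60 (adjusted p = 0.056).

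The mixture of the 6 claudins, as shares of their summed CPM per kb, was led by Cldn7 at group means of 51.3% to 54.9%. Cldn15 made up 23.9% ± 3.40 (SD, n = 3) in Pre control, 23.8% ± 2.77 in Pre 2'-FL, 21.2% ± 1.18 in Post control and 19.7% ± 2.92 in Post 2'-FL. Cldn3 stayed between 17.1% and 18.2% in the group means. Cldn4 was 3.64% ± 1.40 and 2.65% ± 1.10 in the Pre groups and 5.85% ± 1.20 and 4.92% ± 1.10 in the Post groups. Cldn2 was 1.55% ± 0.606 and 2.66% ± 1.54 before and 0.598% ± 0.214 and 0.804% ± 0.123 after resection. Within these shares the first Pre control library held 0.858% Cldn2, close to the Post libraries. These shares were not tested.

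Ocln lies at chr13:100496507-100552718 (− strand; Entrez 18260; 9 exons). It measured 140, 116 and 80.5 CPM in Pre control and 226, 218 and 195 CPM in Post control. All Post control libraries were far above the Pre control libraries. The gene rose 1.90-fold, by 0.93 ± 0.22 on the log2 scale (adjusted p = 0.0188), and by 0.99 ± 0.19 after the correction (adjusted p = 0.00751), the lowest adjusted p of the 9 genes in this arm in both settings. As tested, each of 4 libraries was needed for the call: omitting Pre control 2 or 3 or Post control 1 or 2 gave 0.74 to 0.97, with adjusted p of 0.0509 to 0.0806. Under the correction the call held in all 12 refits. Scaled to epithelium markers in place of all genes, the change was 1.01 with an adjusted p of 0.0502.

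Supplemented bowel had Ocln at 105, 96.9 and 96.1 CPM before and at 177, 151 and 114 CPM after resection. The groups did not overlap, though Post 2'-FL 3 came near the Pre values. The rise was 0.57 ± 0.22 (adjusted p = 0.0377), and 0.56 ± 0.19 after the correction (adjusted p = 0.0352). It was lost as tested without Pre 2'-FL 2, Pre 2'-FL 3, Post 2'-FL 1 or Post 2'-FL 2, at 0.41 to 0.63. With the correction it was lost without any one of the 3 Pre 2'-FL libraries, Post 2'-FL 1 or Post 2'-FL 2, at 0.50 to 0.60.

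F11r, an immunoglobulin-like adhesion protein at chr1:171437535-171464603 (+ strand; Entrez 16456; 10 exons), measured 270, 271 and 192 CPM in Pre control and 302, 316 and 278 CPM in Post control. It measured 206, 192 and 204 CPM in Pre 2'-FL and 198, 239 and 191 CPM in Post 2'-FL. The control groups were barely apart and the 2'-FL groups overlapped. Neither change passed the test, at 0.29 ± 0.18 (adjusted p = 0.299) and 0.06 ± 0.18 (adjusted p = 0.794), nor after the correction, at 0.33 ± 0.18 and 0.10 ± 0.18 (adjusted p = 0.216 and 0.681).

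Tjp1, the scaffold ZO-1, lies at chr7:65296165-65527781 (− strand; Entrez 21872; 28 exons) and has the longest transcript of the 9 at 7049 nt. It measured 99.5, 97.1 and 63.5 CPM in Pre control and 72.9, 52.5 and 88.6 CPM in Post control, which overlapped. Values were 81.1, 75.6 and 72.2 CPM in Pre 2'-FL and 54.7, 37.3 and 35.3 CPM in Post 2'-FL, with every Post library below every Pre library. As tested the gene fell in the 2'-FL arm by 0.85 on the log2 scale (SE 0.24, adjusted p = 0.00831) in all 12 refits, and its control arm change was −0.28 ± 0.23 (adjusted p = 0.443). After the correction the 2'-FL arm change was 0.11 ± 0.21 (adjusted p = 0.714) and the control arm change 0.06 ± 0.20 (adjusted p = 0.85). The corrected levels were 61.3, 57.1 and 58.1 CPM in Pre 2'-FL and 82.3, 52.2 and 55.7 CPM in Post 2'-FL, which overlapped. Tjp1 was thus called lower only without the correction, and it was not called when scaled to epithelium markers (−0.39, adjusted p = 0.292).

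**Figure D3:**
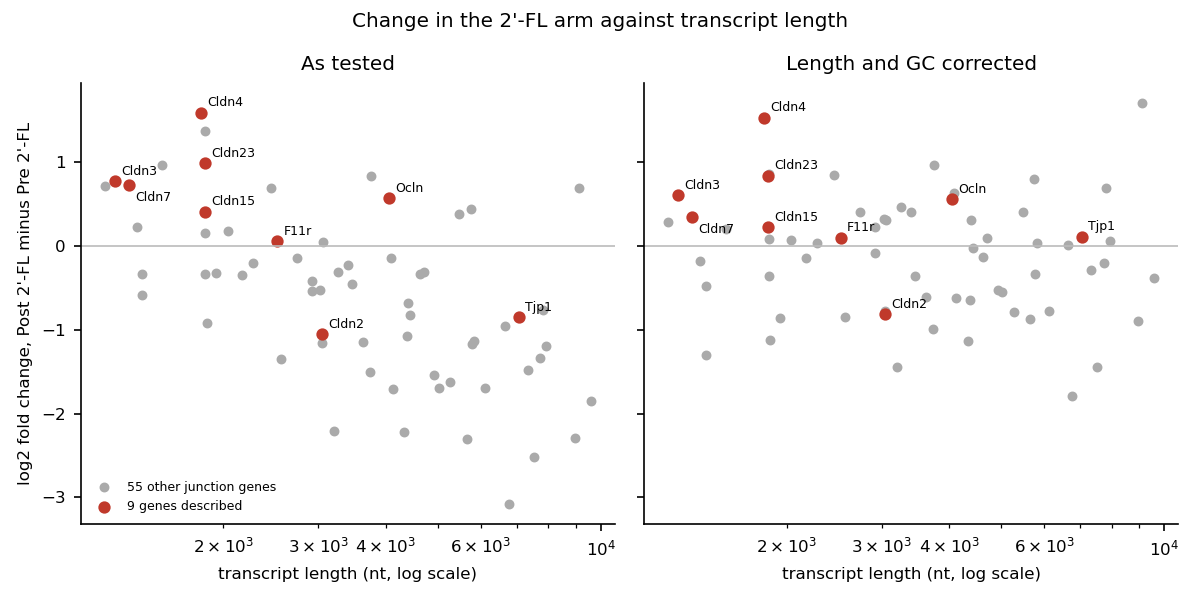
Log2 fold change in the 2'-FL arm (Post minus Pre) against transcript length on a log axis, as tested (left) and after the length and GC correction (right); red points are the 9 genes and grey points the 55 other tested junction genes. As tested the long transcripts, Tjp1 among them, lie mostly below 0, and after the correction Tjp1 lies at 0.11 and Cldn4 at 1.53.

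After resection, supplemented and unsupplemented bowel were compared directly. These libraries also enter the comparisons before against after resection, so the results share samples. As tested 2 of the 9 genes were called lower with the supplement, Tjp1 and F11r, and 0 higher, beside 19.3% of genes lower and 18.8% higher. After the correction the 2 called lower were Ocln and F11r, beside 11.4% lower and 10.4% higher. An unadjusted p under 0.05 was reached by 3 genes as tested and 5 after the correction, and DESeq2 called 2 genes. The 2 groups did not overlap for 2 of the 9 genes, Ocln and F11r, beside 50.7% of all genes. The median change was −0.40 for the 9 genes and 0.02 for all genes.

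F11r fell by 0.51 (SE 0.18, adjusted p = 0.0386) from Post control to Post 2'-FL, and by 0.55 (SE 0.18, adjusted p = 0.0416) after the correction. All 3 Post 2'-FL values (198, 239 and 191 CPM) lay below the lowest Post control value of 278 CPM. As tested the call held in only 2 of 12 refits, those without Pre control 3 or Post 2'-FL 2, and the other 10 gave −0.52 to −0.41. With the correction it held in 4 of 12, and was lost without Pre control 2, Pre 2'-FL 2, Pre 2'-FL 3, any Post control library, Post 2'-FL 1 or Post 2'-FL 3, at −0.61 to −0.48.

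Ocln had a change of −0.53 ± 0.21 as tested (adjusted p = 0.0634), with 177, 151 and 114 CPM in Post 2'-FL all below the Post control minimum of 195 CPM. It fell by 0.67 (SE 0.19, adjusted p = 0.024) after the correction. As tested it was called without Pre control 3 or without Post 2'-FL 1, at −0.54 and −0.69. With the correction the call was lost without Post control 1, Post control 2, Post 2'-FL 1 or Post 2'-FL 3, at −0.71 to −0.59. Tjp1 fell by 0.75 (SE 0.24, adjusted p = 0.0233) as tested, and its corrected change was −0.23 ± 0.21 (adjusted p = 0.442). Its call was lost without Post control 1, Post control 3, Post 2'-FL 2 or Post 2'-FL 3, at −0.68 to −0.51.

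The 6 claudins did not pass the test between the Post groups. Log2 changes were 0.19 ± 0.39 for Cldn2, −0.21 ± 0.23 for Cldn3, −0.47 ± 0.39 for Cldn4, −0.18 ± 0.20 for Cldn7, −0.33 ± 0.22 for Cldn15 and −0.40 ± 0.24 for Cldn23, with adjusted p of 0.203 to 0.735. After the correction they were 0.27 ± 0.38, −0.38 ± 0.19, −0.50 ± 0.37, −0.46 ± 0.21, −0.47 ± 0.18 and −0.50 ± 0.22 in the same order, with adjusted p of 0.0756 (Cldn15) to 0.643. The corrected levels of Cldn3, Cldn7 and Cldn15 did not overlap between the Post groups, which with Ocln and F11r made 5 of the 9 genes. The share of all genes without overlap was taken only as tested, at 50.7%, so this corrected count has no matching background. With the correction and without Post 2'-FL 2, Cldn23 was called lower at −0.75 (adjusted p = 0.031).

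The epithelium markers (8 genes, Cdh1 and Epcam among them) differed between the same libraries. Their summed level was 11300, 11100 and 12200 CPM in Post control and 4680, 8590 and 6810 CPM in Post 2'-FL, with no overlap, and 2 of the 8 were called lower. The largest falls in mean CPM were of Vil1 (2770 to 1010), Krt8 (3870 to 2340) and Epcam (2980 to 1970). Cdx2 went the other way, from 185 to 215 CPM. Scaled to these markers, 0 of the 9 genes were called, the values of Cldn3, Cldn4, Cldn7, Cldn15, Cldn23, Ocln and F11r turned to 0.08 to 0.43, Tjp1 was at −0.07 and Cldn2 at 0.82. That scaling moved the median change of all genes by 0.62, from 0.02 to 0.64, and the share of calls that were higher from 49.3% to 85.5%. The sum of the markers in the Pre groups was 12400, 11700 and 8350 CPM without and 9680, 7900 and 7510 CPM with the supplement. Mesothelium markers (3 genes) went from at most 0.636 CPM in the 6 Pre libraries to 7.13 to 18.2 CPM in the 6 Post libraries. All 3 were called higher in both arms, and 0 between the Post groups. Smooth muscle markers summed to 431 to 672 CPM in Post control and 1110 to 1330 CPM in Post 2'-FL. Of these 5, 2 were called higher (3 after the correction) and 0 lower. Fibroblast markers summed to 116 to 210 and 295 to 497 CPM, with 3 of 6 called higher in both settings and 0 lower. Means of Myh11 and Col1a1 in these lists were lower in Post 2'-FL. The part of these cells in the results on the 9 genes was not tested.

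**Figure D4:**
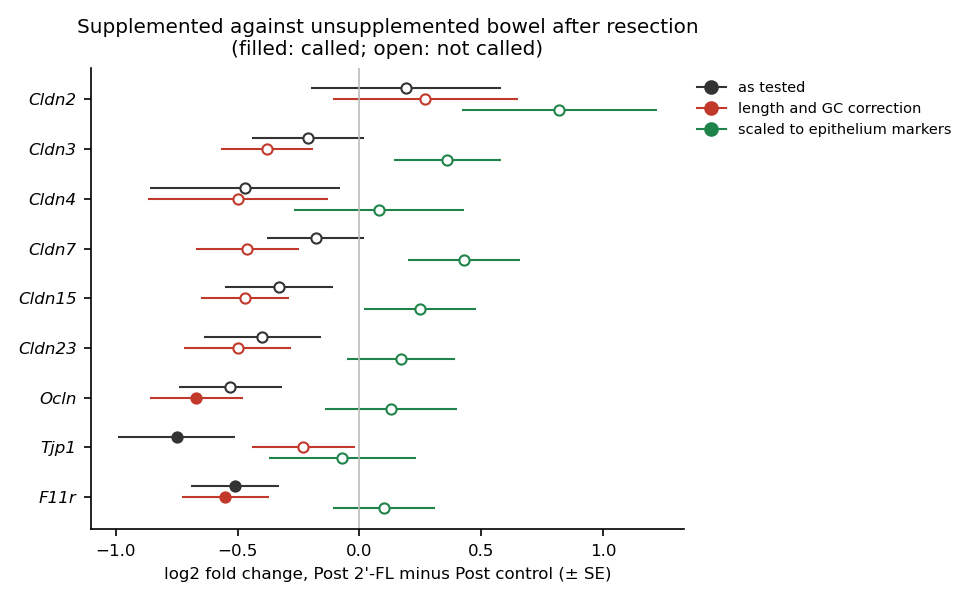
Log2 fold change of the 9 genes between Post 2'-FL and Post control, with the standard error; black is as tested, red after the length and GC correction, green scaled to 8 epithelium markers, and filled circles are called at an adjusted p under 0.05. F11r is filled in black and red, Tjp1 only in black, Ocln only in red and none in green.

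Before resection, 0 of the 9 genes were called between the arms, beside 0% of genes called higher and 0.0152% called lower by edgeR, in both settings. Their log2 differences (Pre 2'-FL minus Pre control) ran from −0.81 for Cldn4 to 0.42 for Cldn2, with a median of −0.32, and 8 of the 9 were negative. F11r was at −0.28 ± 0.18. The Pre groups did not overlap for 4 of the 9 genes as tested and 1 after the correction. The share of all genes was not taken for this comparison. An unadjusted p under 0.05 was reached by 0 of the 9 as tested, by 2 after the correction and by 2 with DESeq2, which also called 0.

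Whether the change after resection differed between the arms was tested as an interaction. No member passed, as tested, after the correction or with DESeq2, and 0 had an unadjusted p under 0.05 in any of the 3. The background was 7.47% of genes called higher and 8.03% lower as tested, and 0% and 0% after the correction. Adjusted p values ran from 0.252 to 0.974 as tested. The differences (2'-FL arm minus control arm) were −0.57 ± 0.33 for Tjp1 and −0.36 ± 0.30 for Ocln as tested, and 0.04 ± 0.29 and −0.43 ± 0.27 after the correction. For F11r the difference was −0.23 ± 0.26 as tested and −0.23 ± 0.25 after the correction. For Cldn4 the difference was 0.34 ± 0.55 and for Cldn2 −0.24 ± 0.55, wide errors beside their size. A call in one arm only, such as that of Cldn3, is therefore not shown to be a difference between the arms.

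Other genes of the junction were taken from lists. Their counts of calls are to be read against the shares of all genes called in the same comparison, given above. Of 19 further claudins in the tables, 3 were tested and 16 had at most 11 counts in any library. Cldn12 rose in the 2'-FL arm by 0.83 ± 0.21 (adjusted p = 0.00428), and by 0.97 after the correction, from 41.7 to 74.0 CPM. The entry listed as Cldn25, which RefSeq names Cldnd1, rose by 0.68 ± 0.21 in the control arm (adjusted p = 0.0481) and 0.97 ± 0.21 in the 2'-FL arm (adjusted p = 0.00133), and neither was called after the correction, at 0.50 and 0.20.

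Among 9 tested of 10 other junction membrane proteins, 1 was called higher and 1 lower in the control arm, and 2 and 2 in the 2'-FL arm. Igsf5, which encodes junctional adhesion molecule 4, rose by 0.62 ± 0.18 in the control arm (adjusted p = 0.044) and 1.37 ± 0.18 in the 2'-FL arm (adjusted p = 6.52e-05), and the corrected rise in the latter was 0.86 (adjusted p = 0.00109). It was also higher in Post 2'-FL than in Post control by 0.77 (adjusted p = 0.00489), though not after the correction (0.34, adjusted p = 0.127). Jam3, a relative of F11r, fell by 1.49 in the control arm (SE 0.35, adjusted p = 0.0185), and was 0.99 higher in Post 2'-FL than in Post control (adjusted p = 0.042; 0.53 and adjusted p = 0.276 after the correction). Marveld3 rose by 0.69 in the 2'-FL arm (adjusted p = 0.0337), and Jam2 and Ildr1 had changes of −1.07 and −1.16, called lower as tested, but were not called after the correction. Endothelium markers (7 genes, Esam of this list among them) summed to 24.4 to 121 CPM in Pre control and 24.5 to 36.5 CPM in Post control, and to 66.0 to 152 and 22 to 33.3 CPM in the 2'-FL groups. In the control arm 1 of the 7 was called lower, and in the 2'-FL arm 6 as tested and 3 after the correction. Their part in the values of Jam2 and Jam3 was not tested. Marveld2, the tricellular junction protein tricellulin, had changes of −0.05 and 0.05 in the arms, and −0.06 between the Post groups.

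Scaffold and polarity genes (19 tested of 20) held 0 called higher and 2 lower in the control arm, Cgnl1 at −1.12 and Amotl2 at −1.11, and neither after the correction. In the 2'-FL arm 1 was called higher and 13 lower of the 19, and 1 and 6 after the correction, beside 25.3% and 30%, and 21.3% and 14.7%, of all genes, with a list median of −1.19 as tested and −0.29 corrected. Tjp3 (ZO-3), a scaffold related to Tjp1, fell by 0.53 (SE 0.20, adjusted p = 0.0388), with a corrected change of 0.32. Cingulin (Cgn) fell by 1.69 (adjusted p = 0.000147; corrected −0.55, adjusted p = 0.0736). The falls of Cgnl1, Amotl2 and Sympk, at −3.08, −2.22 and −1.71, were called in both settings, and stood at −1.79, −1.14 and −0.62 corrected. Between the Post groups 14 were called lower as tested and 5 after the correction, beside 19.3% and 11.4% of all genes, with Cgn at −1.76 and −1.02, called in both settings. Inadl and Sympk were likewise called in both, Pard3 (−1.08) and Tjp3 (−0.62) only as tested.

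Barrier proteases and regulators (8 tested of 9) held 0 calls in the control arm as tested and 1 lower after the correction. In the 2'-FL arm Mylk, the myosin light chain kinase, was lower as tested (−0.76, adjusted p = 0.0413) and higher after the correction (0.69, adjusted p = 0.0456). St14, Spint1 and Arhgef2 were lower in Post 2'-FL than in Post control, by 0.95, 0.60 and 0.87 in size, and not after the correction. Of 16 adherens junction and desmosome genes, 0 were called higher and 1 lower in the control arm (Vcl, vinculin, −0.98). In the 2'-FL arm 1 was called higher and 10 lower of the 16, and 1 and 6 after the correction. The 4 with the smallest p were Dsp (−1.85), Vcl (−1.62), Jup (−2.21) and Pvrl1 (−2.30). Jup, Vcl and Pvrl1 were also called after the correction, at −1.45, −0.79 and −0.87, and Dsp was not, at −0.38. Cdh1, E-cadherin, changed by 0.05 ± 0.20 in the control arm (adjusted p = 0.882) and fell by 0.82 in the 2'-FL arm (adjusted p = 0.00341), with a corrected change of −0.02. Between the Post groups 13 were called lower and 7 after the correction, and Ctnna1, Ctnnd1, Dsg2 and Dsp were called in both settings.

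The genes whose pattern over the 12 libraries came closest to each member were found by the root mean square difference of log2 CPM, centred per gene. These values were taken without the length and GC correction. For Cldn4 they were Slc47a1 at 0.37 and Zfand2a at 0.39, beside a standard deviation of 0.95 for Cldn4 itself. For Cldn2 they were Fam107b at 0.26 and Srm at 0.27, for Cldn23 Metrnl at 0.22 and Tmbim1 at 0.23, and for Cldn3 Tradd at 0.17 and Gm5801 at 0.18. Cldn7 was followed most closely by D1Ertd622e at 0.07 and Mad2l1bp at 0.11, Cldn15 by Ube2m at 0.12 and Klhdc3 at 0.13, and Ocln by Socs4 at 0.16 and Ell2 at 0.20. Tjp1 lay nearest to Dido1 at 0.13 and Ercc6 at 0.15, with transcripts of 8723 and 8423 nt beside 7049 nt for Tjp1. Lengths were mixed for other members. D1Ertd622e (40378 nt) and Mad2l1bp (1272 nt) stood beside 1335 nt for Cldn7, and Socs4 (6877 nt) and Ell2 (4382 nt) beside 4052 nt for Ocln. The part of transcript length in this likeness was not tested. F11r lay nearest to Ccdc68 at 0.10 and Edem1 at 0.11.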

How the data were processed

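RNA-seq of small bowel (TruSeq RNA libraries, HiSeq 2000, per the labels' protocols) gave 12 tables of expected counts per gene, deposited by the authors. Per the submitters' processing notes mm10 and DESeq were used; the aligner, counter and strand setting are not given in the sources used here. The values are unnormalized, and 15.2% to 20.5% per library were fractional. Entries of 1 gene (486 of 36186) were summed by Entrez ID and rounded to whole counts. The members and all gene lists were chosen with earlier results of these data known. Genes passing filterByExpr were fitted with edgeR 4.0.16 in R 4.3.3 (TMM, quasi-likelihood, 4 group means, 8 residual degrees of freedom), and p-values were adjusted by Benjamini-Hochberg over all 13154 genes. CPM values are TMM-scaled, and errors of fold changes are standard errors. The correction removed natural splines (4 df) of log2 transcript length and GC content, from GENCODE vM21, from each library's centred log2 CPM (prior count 2). Alternatives were the replicate number as a block, DESeq2 1.42.0, its size factors, no filter, scaling to epithelium markers, and leaving out each library. Leaving out libraries under the correction was added after seeing the data. Scripts were tested on simulated data. Named genes were the 9 members, up to 4 called genes per list and comparison by smallest p, with Tjp3, Cgn, Marveld2 and Cdh1 always (a further gene of this rule is not reported here), and the 2 genes (mean of at least 5 CPM) nearest to each member. No 2 libraries had equal counts in more than 5.0% of genes.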

Additional observations from a re-analysis of the deposited data

How the results depend on the processing

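Of the 45 fold changes (9 genes, 5 comparisons), 42 to 44 kept their direction and call with DESeq2's test, its size factors or no filter, 35 with the length and GC correction and 27 when scaled to epithelium markers. In the control arm the number called higher was 4 with DESeq2 and 1 under the epithelium scaling. The number called lower in the 2'-FL arm was 0 with the correction, with the replicate block and correction, and under the epithelium scaling. Between the Post groups it was 1 with DESeq2's size factors and 0 under the epithelium scaling. Tjp1 turned to 0.06 in the control arm and 0.11 in the 2'-FL arm with the correction, and to 0.08 and 0.09 with the block as well. Under the epithelium scaling, the Post groups' values became 0.36 (Cldn3), 0.08 (Cldn4), 0.43 (Cldn7), 0.25 (Cldn15), 0.17 (Cldn23), 0.13 (Ocln) and 0.10 (F11r), and the Pre groups' values 0.13 (Ocln), 0.12 (Tjp1) and 0.01 (F11r). Interaction values, none of them called, turned to −0.15 (Cldn7), −0.12 (Cldn15), −0.03 (Cldn23) and 0.04 (Tjp1) with the correction. With block and correction they turned to 0.01 (Cldn2), −0.18 (Cldn7), −0.13 (Cldn15), −0.02 (Cldn23) and 0.01 (Tjp1). Without the filter Cldn15 was at 0, and under the epithelium scaling Cldn2 was at 0.13, Ocln at 0 and F11r at 0.09. The causes were not tested.

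The replicate number was tested as a block. Same-numbered libraries deviated together with correlations of −0.23 to 0.42, not all above 0.1. The highest, 0.42, was of Pre control 1 with Pre 2'-FL 1, each the lowest of its group in Cldn2, and the next was 0.22. With 3 libraries a group, these correlations cannot tell whether same-numbered libraries belonged together. The replicate block alone kept 44 of 45 values and added a call of Ocln between the Post groups at −0.56. It lowered the SE of Cldn2 in the 2'-FL arm from 0.39 to 0.26, with a change of −0.89 (edgeR, adjusted p = 0.0128).

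Over the refits leaving out 1 library, with and without the correction, 0 to 3 genes were called higher in the control arm, 1 to 5 higher and 0 to 2 lower in the 2'-FL arm, and 0 to 3 lower between the Post groups. With 3 libraries a group, 1 library can decide a call. Directions that turned were those of Tjp1 in the control arm (−0.46 to 0.20) and 2'-FL arm (−1.07 to 0.23), F11r in the 2'-FL arm (−0.04 to 0.18), and Cldn2 (−0.04 to 0.80) and Ocln (−0.43 to 0.02) between the Pre groups. Interaction values over both settings together ran from −0.55 to 0.31 for Cldn2, −0.16 to 0.72 for Cldn4 and −0.31 to 0.28 for Cldn7. They ran from −0.21 to 0.21 for Cldn15 and −0.28 to 0.38 for Cldn23. Those of Cldn3 and Tjp1 turned only with the correction. As tested they were 0.10 to 0.43 and −0.79 to −0.32, and corrected −0.06 to 0.26 and −0.19 to 0.22.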
